A study of Ovis aries with 24 samples.

Results

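The ascending aorta of fetal sheep was compared between near term and preterm, which describes how the vessel matured in utero. The 8 arrays were chosen by their titles: 4 near-term and 4 preterm aortas, out of 24 arrays in the series. Near-term fetuses were at 136 ± 0.8 days of gestation and preterm fetuses at 97 days, with full term at 145 days, while the titles give 140 and 100 days. Each group held 4 animals, and each single-colour Agilent array carried the RNA of 1 segment of ascending aorta taken next to the ductus arteriosus. The labels name no strain, sex, treatment or genotype for either group. The other 16 arrays hold newborn aortas of 12 hours and the ductus arteriosus, the fetal vessel between pulmonary artery and aorta, at the same 3 stages. All 24 arrays entered the fit and so shared its estimate of the spread.

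The wall of the fetal aorta is built mainly by smooth muscle cells, which multiply and lay down elastin and collagen while blood flow and pressure increase, and which shift towards contraction later in gestation. Insulin-like growth factors drive much of fetal growth, and IGF2 is the main fetal form. In sheep, fetal cortisol rises towards term and prepares many organs for birth. A fat depot and immune cells that settle in the outer coat also form part of a dissected vessel segment.

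Levels are given on a log2 scale on which 0 is the 75th percentile of an array's signal, so that 1 unit is a doubling, and levels of different probes are not compared. Of 15008 probes, 14000 rose well above the local background on 4 or more of the 24 arrays and were tested with limma. Only 1476 probes could be given a gene name, so that 778 named genes were tested, each by its brightest probe. A call is a Benjamini-Hochberg adjusted p under 0.05 over all 14000 probes. Errors after ± are standard errors of the fit with n = 4 in each group, unless marked SD. In bulk tissue, fewer cells of a type and less RNA per cell cannot be told apart.

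Some arrays stood apart. Near-term array 1 and preterm array 1 had a detection limit of the spike-in controls of 0.951 and 0.884. It was 1.93 to 2.43 on the other near-term arrays and 1.85 to 2.11 on the other preterm arrays. On these 2 arrays 70% and 72.1% of spots were well above background, against 82.7% to 92.7% on the other 6. The first principal component (61.1% of the variance among the 8 arrays) parted these 2, at −63.9 and −117, from the other 6. Near-term array 3 lay at its other end, at 96.1. The second component (12.8%) was above 0 on all near-term and below 0 on all preterm arrays. Near-term array 4 had a summed level of 19.9 over the 8 fat cell markers, against 2.03 to 2.80 on the other near-term arrays, and of 95.9 over both erythroid markers, against 5.87 to 6.92. Preterm arrays had 0.954 to 1.63 and 6.44 to 15.9 for these sums. HBB made up nearly all of the erythroid sum, at 5.76 to 95.8 by itself over the near-term arrays. All near-term arrays lay on 1 slide and all preterm arrays on another, so that stage and slide cannot be told apart. Of the smooth muscle markers, MYLK and CNN1 had named probes, and both were well above background on all 8 arrays. ACTA2, MYH11, ELN and MKI67 were not analysed here.

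Between preterm and near term, 69 of 14000 probes changed (0.493%): 32 were higher near term (0.229%) and 37 were lower (0.264%). The fold was 1.87 to 30 (median 3.23) among the higher probes and 1.53 to 6.52 (median 2.13) among the lower ones. Of the 69, 62 were well above background on all 4 near-term and all 4 preterm arrays. Both upper ends come from probes that were not, a probe of LGALS14 and the unnamed A_70_P004231, so that these folds are uncertain. At an unadjusted p under 0.05 there were 1455 probes (10.4%). The 4 near-term arrays did not overlap the 4 preterm arrays for all 69 called probes. The same held for 1263 of all 14000 tested probes (9.02%), of which 564 were higher (4.03%) and 699 lower (4.99%) near term. The median change over all probes was 0.13, and over the named genes 0.29, with 61.7% of all probes and 68.5% of the named genes above 0. The count of a list's members above 0 is to be read against that 68.5%. The median over all probes was −0.046 under median centring and −0.014 under quantile normalisation, and 0.37 after normexp background correction, so that the sign of a small change, and the number of a list's members above 0, move with the scaling. Only 11 of the called probes carried a gene name, for 9 genes, and 58 were unnamed (26 higher and 32 lower).

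**Figure D1:**
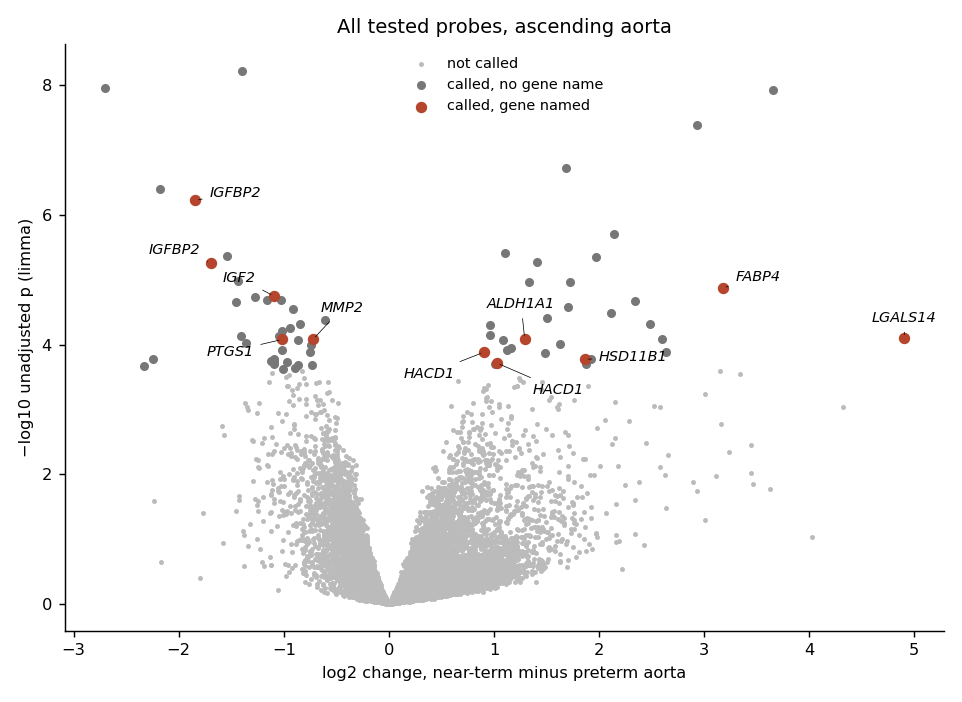
Each point is 1 of 14000 tested probes, with the log2 change (near-term minus preterm aorta) across and −log10 of the unadjusted limma p upwards. The 69 called probes are dark, and the 11 of them with a gene name are red and labelled: IGFBP2, IGF2, PTGS1 and MMP2 lie on the lower side, and FABP4, LGALS14, ALDH1A1, HSD11B1 and HACD1 on the higher side.

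Of the named genes, 7 of 778 were called (0.9%). The called count of each list below is to be read against that share, and its median against 0.29. The 4 genes FABP4, HSD11B1, ALDH1A1 and HACD1 were higher near term (0.514%), and the 3 genes IGFBP2, PTGS1 and MMP2 were lower (0.386%). These are a fatty acid carrier, enzymes of steroid, retinoid and fatty acid metabolism, a binding protein of insulin-like growth factors, cyclooxygenase 1 and a matrix protease. For IGF2 and LGALS14 a dimmer probe was called while the brightest, by which the gene is counted, was not. Among unnamed probes, the largest rises were those of A_70_P038556 (2.13 in near-term and −1.52 in preterm aortas on average, adjusted p = 5.454e-05) and A_70_P065851 (1.36 in near-term and −1.58 in preterm aortas, adjusted p = 0.000146). The largest fall was that of A_70_P004231, which was well above background on 4 preterm arrays and 0 near-term arrays (adjusted p = 5.454e-05). Its preterm mean lay 4.57-fold above the near-term values raised to the array floor, which is an estimate and not a lower limit. The next was A_70_P023016, at −5.77 in near-term and −3.44 in preterm aortas (adjusted p = 0.0442).

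**Figure D2:**
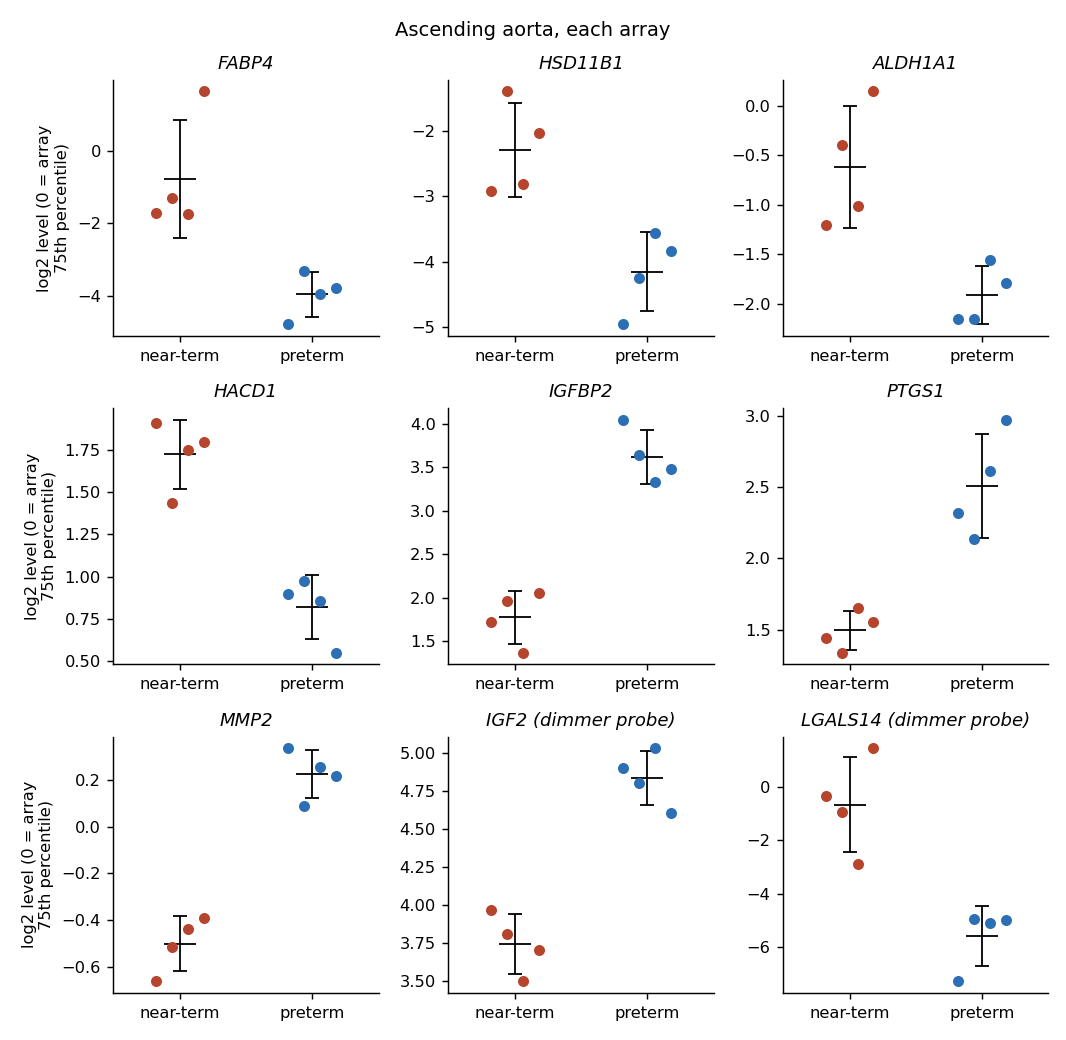
Log2 levels on each of the 4 near-term (red, left) and 4 preterm (blue, right) aorta arrays for the 7 called genes and for the called dimmer probes of IGF2 and LGALS14, with black lines for the mean ± SD. The groups do not overlap in any panel, and near-term array 4 lies at 1.63 for FABP4, far above the other 3 near-term arrays.

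In the insulin-like growth factor system IGFBP2, which binds these factors in fetal fluids and tissues, fell. Its levels were 1.72, 1.97, 1.37 and 2.05 in near-term aortas, against 4.04, 3.64, 3.33 and 3.48 in preterm aortas. Every near-term array lay more than 1 unit below every preterm array. The change was −1.85 ± 0.26, a 3.59-fold lower level near term (adjusted p = 0.00119), and its second probe changed by −1.69 ± 0.28 (adjusted p = 0.00585). IGFBP2 stayed called when any 1 of the 8 arrays was left out, with changes of −1.94 to −1.70 and adjusted p of 0.00254 to 0.00893. Over the arrays with a spike-in limit above 1.5 alone, 3 near-term and 3 preterm, it was −1.69 (adjusted p = 0.0575).

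IGF2, a growth factor of fetal tissues, was measured by 2 probes. The dimmer probe read 3.97, 3.81, 3.50 and 3.70 in near-term aortas, against 4.91, 4.80, 5.03 and 4.61 in preterm aortas. All 4 near-term values lay below all preterm values, a change of −1.09 ± 0.19, or 2.13-fold lower (adjusted p = 0.0133). The brighter probe was marked as non-uniform on 3 of the 4 near-term arrays, and those spots were left out. It therefore rests on 1 near-term value of 4.98, against 5.37, 5.27, 5.87 and 5.92 in preterm aortas, and did not pass at −0.63 ± 0.41 (adjusted p = 0.719). With the marked spots kept its change was −0.69 (adjusted p = 0.273). This dimmer probe was singled out after its values were seen. It lost its call without near-term array 3 (−1.01, adjusted p = 0.0571), preterm array 1 (−1.07, 0.0511) or preterm array 3 (−1.03, 0.054).

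Of the 11 tested members of the growth factor system, IGFBP2 was lower, 0 were higher and 10 did not pass. The median change of the list was −0.0644, against 0.29 over all named genes. IGFBP4, another binding protein, read 5.24, 5.02, 4.91 and 5.13 in near-term aortas, against 5.49, 5.49, 5.77 and 5.80 in preterm aortas. The groups did not overlap, and the change of −0.56 ± 0.17 (adjusted p = 0.171) did not pass. GHR, the growth hormone receptor, was at 0.65 ± 0.40 (adjusted p = 0.66), IGF1 at 0.32 ± 0.71 (adjusted p = 0.925) and IGF1R, the receptor of both factors, at −0.41 ± 0.25 (adjusted p = 0.664).

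The enzymes HSD11B1 and ALDH1A1, which make active hormones, were higher near term. HSD11B1 regenerates active cortisol from inert cortisone inside cells, and it read −2.93, −1.40, −2.81 and −2.04 in near-term aortas, against −4.96, −4.26, −3.57 and −3.84 in preterm aortas. The lowest near-term array was above the highest preterm array, and the change was 1.86 ± 0.40, or 3.64-fold higher (adjusted p = 0.0413). A second, dimmer probe of the gene was well above background on 3 near-term arrays and 0 preterm arrays. Its groups overlapped, and its change of 1.20 ± 0.78 was not called (adjusted p = 0.698). ALDH1A1 makes retinoic acid from retinal, and it read −1.20, −0.39, −1.01 and 0.14 in near-term aortas, against −2.15, −2.15, −1.55 and −1.78 in preterm aortas. Every near-term array was above the preterm ones, and the level was 2.45-fold higher near term (1.29 ± 0.26, adjusted p = 0.0279).

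Both calls were close to the threshold, and normexp background correction ended both, with a change of 1.19 (adjusted p = 0.0822) for HSD11B1. HSD11B1 did not pass with any 1 array left out, with changes of 1.56 to 2.07 and adjusted p of 0.0512 to 0.168. ALDH1A1 passed without near-term array 1 or 3 or preterm array 3. It did not without near-term array 2 (1.22, adjusted p = 0.0974) or 4 (1.04, 0.0838), or without preterm array 1 (1.21, 0.112), 2 (1.21, 0.0882) or 4 (1.33, 0.0596). Of 17 tested steroid and retinoid enzymes and receptors, 2 were higher, 0 were lower and 15 did not pass. Among all named genes 0.514% were called higher and 0.386% lower. The median change of the list was 0.41, against 0.29 over all named genes. Over the alternative settings 0 to 2 of the 17 passed, with 0 under median centring and with the 8 aorta arrays fitted alone. The glucocorticoid receptor NR3C1 was well above background on 1 near-term array and 0 preterm arrays, so that its level could not be compared. ESR1, an oestrogen receptor, was at 0.95 ± 0.55 (adjusted p = 0.635).

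In the prostanoid pathway, which makes prostaglandins, PTGS1 was lower near term. PTGS1 is cyclooxygenase 1, which carries out the first step from arachidonic acid to prostaglandins. It read 1.44, 1.34, 1.65 and 1.56 in near-term aortas, against 2.32, 2.13, 2.61 and 2.97 in preterm aortas. All near-term arrays lay below all preterm arrays, and the level was 2.02-fold lower near term (−1.01 ± 0.21, adjusted p = 0.0279). The inducible form PTGS2 was at 0.29 ± 0.30 (adjusted p = 0.868), ALOX5AP, which serves leukotriene synthesis, at 0.61 ± 0.27 (adjusted p = 0.429) and SLCO2A1, the prostaglandin transporter, at 0.45 ± 0.33 (adjusted p = 0.766). Of 10 tested members PTGS1 was lower, 0 were higher and 9 did not pass. Their median change was 0.53, and 8 of the 10 had a change above 0, as did 68.5% of all named genes. PTGS1 passed without preterm array 2 (adjusted p = 0.0286). It did not with any 1 of the other 7 arrays left out, with changes of −1.08 to −0.86 and adjusted p of 0.0551 to 0.103.

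Of the matrix genes 1 passed. MMP2, a protease that cleaves gelatin and basement membrane collagen, read −0.66, −0.51, −0.44 and −0.39 in near-term aortas, against 0.33, 0.089, 0.26 and 0.21 in preterm aortas. The groups did not overlap, and the change was −0.72 ± 0.15 (adjusted p = 0.0279), or 1.65-fold lower near term. Its second probe was at −0.58 ± 0.16 (adjusted p = 0.151). MMP2 passed without near-term array 4 (adjusted p = 0.0445) and not without any 1 of the other 7, with changes of −0.77 to −0.67 and adjusted p of 0.0554 to 0.112. Of 9 tested proteases and inhibitors MMP2 was lower, 0 were higher and 8 did not pass (median change 0.24). CTSS, an elastin-degrading cathepsin of immune cells, was at 0.45 ± 0.19 (adjusted p = 0.402).

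Structural matrix genes did not pass. DCN, a small proteoglycan that coats collagen fibrils, read 4.89, 5.01, 4.27 and 5.31 in near-term aortas, against 5.50, 5.28, 5.81 and 5.74 in preterm aortas. The groups overlapped at 1 near-term array, and the change was −0.71 ± 0.25 (adjusted p = 0.277). FBLN1, a glycoprotein of elastic fibres, was at −0.60 ± 0.24 (adjusted p = 0.351), COL1A1 at −0.36 ± 0.31 (adjusted p = 0.823) and COL3A1 at −0.17 ± 0.49 (adjusted p = 0.934). HYAL2, which breaks down hyaluronan, did not overlap between groups and was at −0.60 ± 0.17 (adjusted p = 0.162). The summed level of the 5 fibroblast markers tested was 26.6 to 46.09 in near-term and 46.06 to 67.7 in preterm aortas, so that the ranges just overlapped. It includes DCN, FBLN1, COL1A1 and COL3A1, with 4 of 5 markers below 0 in their change and 0 called. DCN made up most of the sum on every array. Its part in the fall of MMP2 was not tested.

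Among genes of lipid handling FABP4 rose. FABP4 carries fatty acids in fat cells, macrophages and small-vessel endothelium, and it read −1.71, −1.31, −1.75 and 1.63 in near-term aortas, against −4.79, −3.32, −3.95 and −3.79 in preterm aortas. The lowest near-term array was above the highest preterm array by more than 1 unit, and the change was 3.18 ± 0.55, or 9.04-fold higher near term (adjusted p = 0.0111). Without near-term array 4, where it was highest, the change was 2.37 (adjusted p = 0.00425). Without preterm array 1 it was 2.90 (adjusted p = 0.0529) and no longer called, and it passed without any 1 of the other arrays. Normexp background correction gave 2.00 (adjusted p = 0.0556), and the 8 aorta arrays fitted alone gave an adjusted p of 0.206, so that neither called it.

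LPL, which releases fatty acids from circulating fat, read −0.97, −1.35, −0.77 and 0.20 in near-term aortas, against −2.65, −2.93, −1.90 and −1.62 in preterm aortas, without overlap, and did not pass at 1.55 ± 0.45 (adjusted p = 0.162). PPARG, the master regulator of fat cells, was at 1.88 on near-term array 4 and between −1.56 and −1.40 on the other 3 near-term arrays, against −2.73 to −1.51 in preterm aortas (1.31 ± 0.56, adjusted p = 0.405). UCP1, the uncoupling protein of brown fat, was at 3.24 on near-term array 4, at −2.81 to −1.44 on the other 3, and at −5.96 to −2.87 in preterm aortas (3.01 ± 1.44, adjusted p = 0.478). PPARG and UCP1 were singled out after their values were seen. All 8 tested fat cell markers had a change above 0, with a median of 1.05, and FABP4 was the 1 that passed. Their summed level was 2.03 to 19.9 in near-term aortas, or 2.03 to 2.80 without array 4, and 0.954 to 1.63 in preterm aortas. The part of fat cells in the rise of FABP4 was not tested.

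Of 17 tested lipid genes FABP4 was higher, 0 were lower and 16 did not pass (median change 0.45). CPT1A, which admits fatty acids to mitochondria, did not overlap between groups (0.70 ± 0.27, adjusted p = 0.338). APOA1, the main protein of high-density lipoprotein, was at −0.99 ± 0.36 (adjusted p = 0.283). HACD1, a dehydratase in the elongation of very long fatty acids that muscle cells use, was called by both of its probes. Its brighter probe read 1.91, 1.44, 1.75 and 1.80 in near-term aortas, against 0.90, 0.98, 0.86 and 0.55 in preterm aortas. The groups did not overlap, and the level was 1.87-fold higher near term (0.90 ± 0.19, adjusted p = 0.0352). The second probe changed by 1.03 ± 0.22, adjusted p = 0.0434. HACD1 did not pass with any 1 array left out, with changes of 0.81 to 1.00 and adjusted p of 0.0508 to 0.111.

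**Figure D3:**
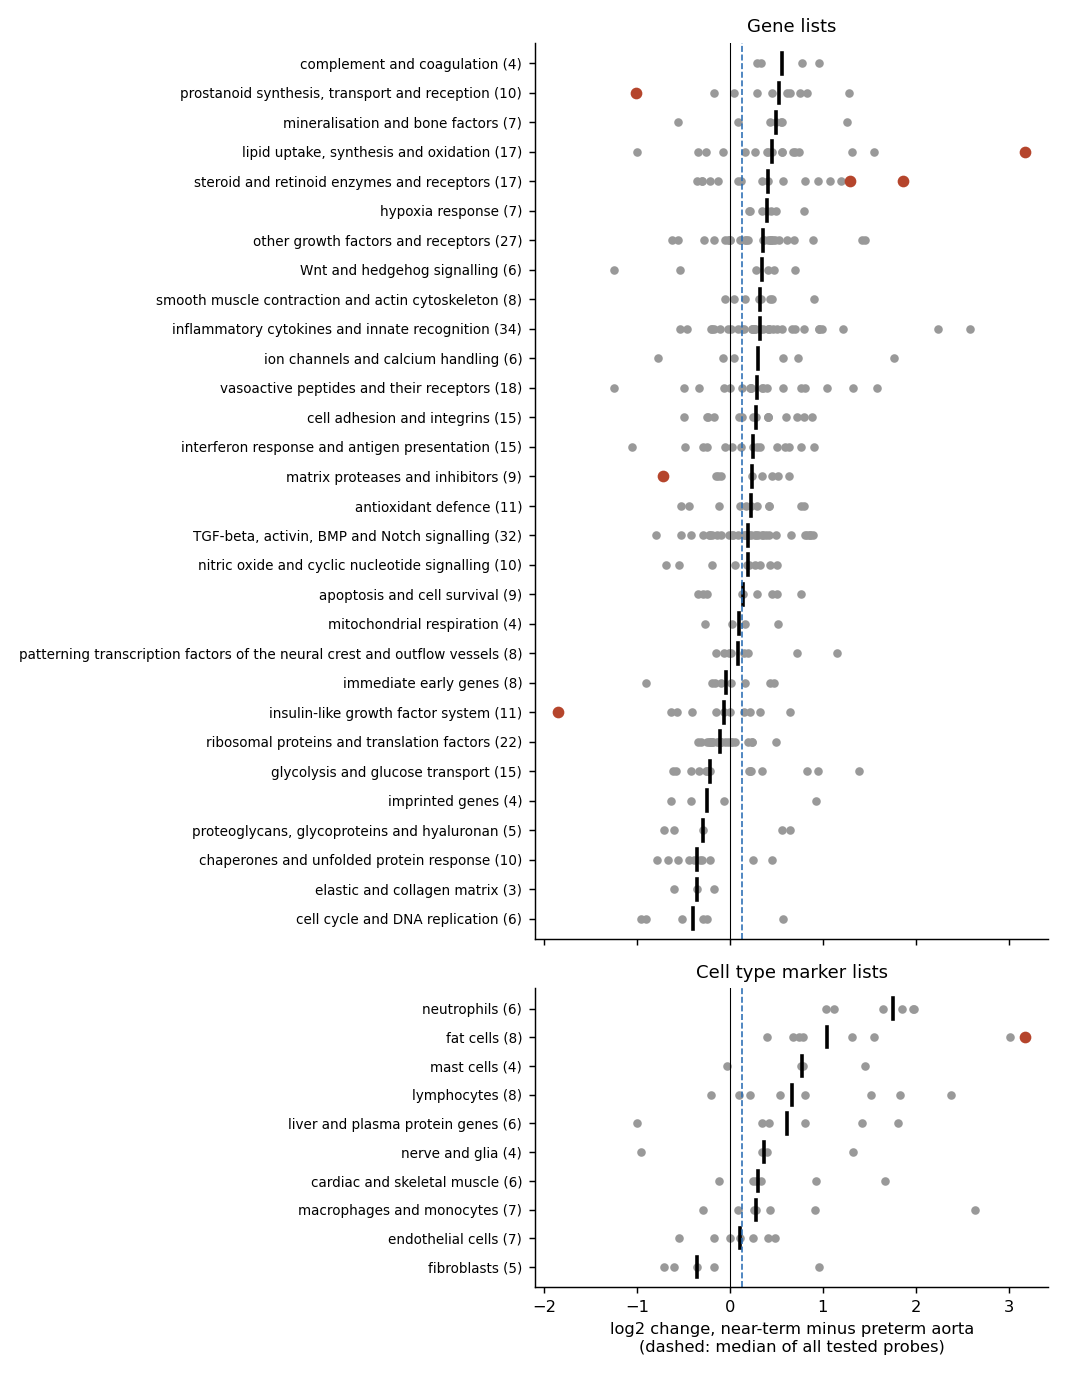
Log2 changes (near-term minus preterm aorta) of the tested members of each gene list and cell type marker list with at least 3 tested members, with the number tested after each name. Grey points did not pass, red points are called, black bars are list medians and the dashed line is the median of all tested probes (0.13). The red points are single members: 2 in the steroid and retinoid list and 1 each in the lipid, growth factor, prostanoid and protease lists, with FABP4 again among the fat cell markers.

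Of the contractile genes 0 passed. MYLK, the kinase that starts smooth muscle contraction, read 6.06, 5.02, 5.44 and 5.39 in near-term aortas, against 4.92, 4.56, 4.75 and 4.08 in preterm aortas. MYL6, a myosin light chain, read 7.79, 7.25, 7.39 and 7.23 in near-term aortas, against 7.20, 6.46, 7.14 and 7.03 in preterm aortas. Neither gene overlapped between the groups, and the changes were 0.90 ± 0.57 (adjusted p = 0.681) and 0.46 ± 0.19 (adjusted p = 0.395). CNN1, a calponin of differentiated smooth muscle, was at 0.32 ± 0.21 (adjusted p = 0.731) over 3 near-term and 4 preterm arrays, 1 near-term spot being left out. Of 8 tested contraction and actin genes 7 had a change above 0 and 0 passed, with a median of 0.33, near the 0.29 of all named genes, of which 68.5% were above 0. Among all named genes the 4 and 4 arrays did not overlap for 76 of 778 (9.77%), and among these 8 for 3. CALM2, a calmodulin gene, was at 0.74 ± 0.27 (adjusted p = 0.288).

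Of the 6 tested genes on the cell division list 0 passed. TYMS, which supplies thymidylate for DNA synthesis, read −0.53, −0.17, −0.46 and −0.52 in near-term aortas, against 0.61, 0.57, 0.63 and 0.34 in preterm aortas. The groups did not overlap, and the change was −0.96 ± 0.38 (adjusted p = 0.344). MYC was at −0.90 ± 0.36 (adjusted p = 0.344) and PCNA, the replication clamp, at −0.51 ± 0.28 (adjusted p = 0.599). The cell cycle inhibitor CDKN1B was at 0.57 ± 0.41 (adjusted p = 0.755). Of 6 tested cell cycle genes 5 were below 0, with a median of −0.40 and 0 called.

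Of 10 tested chaperones of protein folding 8 were below 0, with a median of −0.36 and 0 called. HSPA5, the main chaperone of the endoplasmic reticulum, read 3.14, 3.08, 2.99 and 3.39 in near-term aortas, against 3.86, 3.80, 3.70 and 3.91 in preterm aortas, without overlap. Its change of −0.66 ± 0.16 (adjusted p = 0.0637) lay just outside the threshold. PDIA4, a disulphide isomerase of the same compartment, was at −0.55 ± 0.20 (adjusted p = 0.281) and HSP90AA1 at −0.44 ± 0.19 (adjusted p = 0.415).

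Among signalling genes 0 passed, and of the 32 tested genes of TGF-beta, BMP and Notch signalling 22 had a change above 0, a share like that of all named genes (68.5%). TGFBR2, a receptor of transforming growth factor beta, read −1.98, −1.94, −1.46 and −1.86 in near-term aortas, against −2.90, −2.76, −2.42 and −2.74 in preterm aortas. FZD2, a Wnt receptor, read −0.0516, 1.21, 1.32 and 1.52 in near-term aortas, against 2.28, 1.96, 2.28 and 2.45 in preterm aortas. Neither overlapped between groups, and they were close to the threshold at 0.90 ± 0.22 (adjusted p = 0.0733) and −1.24 ± 0.31 (adjusted p = 0.0907). JAG1, a Notch ligand of the vessel wall, was at −0.80 ± 0.25 (adjusted p = 0.212), WNT5A at −0.53 ± 0.38 (adjusted p = 0.746) and ANGPT1, a ligand that steadies endothelium, at 1.42 ± 0.59 (adjusted p = 0.382). AQP3, a channel for water and glycerol, read 2.56, 2.2, 2.04 and 1.09 in near-term aortas, against −0.20, −0.0756, 1.00 and 0.11 in preterm aortas, without overlap (1.76 ± 0.44, adjusted p = 0.0874).

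Vasoactive genes did not pass either. AGTR2, the angiotensin receptor that prevails in fetal tissues, read −1.73, −1.80, −3.07 and −2.71 in near-term aortas, against −1.24, −1.46, −0.72 and −0.90 in preterm aortas. It did not overlap between groups, and the change was −1.25 ± 0.56 (adjusted p = 0.429). AGTR1 was at −0.0596 ± 0.37 (adjusted p = 0.967), EDN1, the precursor of endothelin 1, at 0.13 ± 0.34 (adjusted p = 0.928) and its receptor EDNRB at 1.04 ± 0.50 (adjusted p = 0.482). For EDNRB, preterm array 1 read −7.21, with the nearest preterm array at −4.63. Its change was 0.358 to 1.375 with 1 array left out. NOS3, the endothelial nitric oxide synthase, was at −0.54 ± 0.35 (adjusted p = 0.686). Of 18 tested vasoactive peptides and receptors 0 passed, with a median of 0.29, and of 10 genes of nitric oxide and cyclic nucleotide signalling 0 passed, with a median of 0.20.

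Among immune genes 1 probe passed. The dimmer of 2 probes of LGALS14, a galectin known from the eosinophils of sheep, read −0.33, −0.92, −2.87 and 1.45 in near-term aortas, against −7.27, −4.94, −5.10 and −4.99 in preterm aortas. The groups did not overlap, and the change was 4.91 ± 0.99, or 30-fold higher (adjusted p = 0.0279). Without near-term array 4, which stood apart, it was 18.4-fold higher (adjusted p = 0.091). Without near-term array 3 it was 49.9-fold higher (adjusted p = 0.0207), the 1 array whose absence left the call. With any 1 of the other 7 arrays left out it was 18.4- to 34.7-fold higher, with adjusted p of 0.0573 to 0.12. The brighter probe was at 4.33 ± 1.11 (adjusted p = 0.0941). Both probes were well above background on 3 of the 4 preterm arrays, and the gene was singled out after its values were seen. The acute-phase gene SAA3 read 3.49, 4.20, 1.30 and 0.48 in near-term aortas, against −1.02, 0.26, −0.37 and 0.29 in preterm aortas. It did not overlap, nor did PTX3, a soluble pattern-recognition protein, and neither passed, at 2.58 ± 0.66 (adjusted p = 0.0941) and 1.22 ± 0.29 (adjusted p = 0.0655). TLR8, a receptor for single-stranded RNA, was well above background on 4 near-term arrays and 0 preterm arrays, and did not pass (adjusted p = 0.312). Its near-term mean lay 4.28-fold above the preterm values raised to the array floor, which is an estimate and not a lower limit. The fitted change was 1.77 to 2.63 with 1 array left out.

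Of 34 tested inflammatory and innate genes 27 had a change above 0, 8 did not overlap between groups and 0 were called, against 68.5% of all named genes above 0 and 9.77% without overlap, with a median of 0.33. All 6 neutrophil markers were above 0 (median 1.75, summed level 0.711 to 1.83 in near-term and 0.204 to 1.26 in preterm aortas). Of 8 lymphocyte markers 7 were above 0 (median 0.67, summed level 0.41 to 2.28 in near-term and 0.425 to 1.02 in preterm aortas). Of 7 macrophage and monocyte markers 6 were above 0 (median 0.28), and their summed level did not overlap, at 3.17 to 4.18 in near-term and 2.05 to 2.82 in preterm aortas. No marker of these 3 lists was called, and their part in the higher level of LGALS14 was not tested. The groups did not overlap for 0 of the 6 neutrophil, 1 of the 8 lymphocyte and 1 of the 7 macrophage and monocyte markers. Of all named genes 68.5% were above 0. Of 7 endothelial markers 5 were above 0 (median 0.11), with summed levels of 0.773 to 2.29 and 1.20 to 1.68 in near-term and preterm aortas.

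Of the metabolic and protective genes beyond lipids 0 passed. SOD2, the mitochondrial superoxide dismutase, was at 0.76 ± 0.28 (adjusted p = 0.283) and FTH1, the iron-storing ferritin heavy chain, at −0.43 ± 0.14 (adjusted p = 0.238), both without overlap between groups. SLC2A4, the insulin-responsive glucose transporter, was at 1.39 ± 0.56 (adjusted p = 0.353) and PYGM, the muscle form of glycogen phosphorylase, at 0.83 ± 0.39 (adjusted p = 0.463). BGLAP, the bone protein osteocalcin, was at 1.26 ± 0.54 (adjusted p = 0.409). Of 15 genes of glycolysis and glucose transport 7 were above 0, with a median of −0.21, and of 22 ribosomal proteins and translation factors 7 were above 0, with a median of −0.10, both with 0 called. All 7 tested hypoxia genes were above 0, with a median of 0.40 and 0 called. Other lists with 0 called were those of 27 other growth factors and receptors, with 21 above 0, 15 adhesion genes, with 11 above 0, and 15 interferon and antigen presentation genes, with 10 above 0. Among all named genes 68.5% were above 0.

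The ductus arteriosus allowed a test of whether these changes were particular to the aorta. Its arrays lay on the same slides by stage, and the labels do not tie the vessels of 1 animal together. In the ductus, 44 probes changed between preterm and near term, 22 higher (0.157%) and 22 lower (0.157%). Both vessels called 20 probes in the same direction, which is 29% of the aorta's 69 and 45.5% of the ductus's 44. For 68 of the 69 the fitted change in the ductus had the same sign, and for 56 of these 68 the change was larger in size in the aorta, where the probes were selected. The difference of the changes, aorta minus ductus, passed for 0 of 14000 probes (0%) with limma. At an unadjusted p under 0.05 it was 224 probes (1.6%), 14 of them among the 69. That is less than the share of 0.05 that evenly spread p-values would give. The p-values thus ran large, and the 0 calls do not show that the vessels changed alike. The cause of the low share was not tested.

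For IGFBP2 the changes were −1.85 ± 0.26 in the aorta and −1.19 ± 0.26 in the ductus, a difference of −0.65 (95% confidence interval −1.41 to 0.10). HSD11B1 changed by 1.86 ± 0.40 in the aorta and 0.84 ± 0.40 in the ductus, a difference of 1.02 (95% confidence interval −0.16 to 2.21). FABP4 had 3.18 ± 0.55 in the aorta and 2.34 ± 0.55 in the ductus, a difference of 0.84 (95% confidence interval −0.79 to 2.47). All 3 intervals include 0 and also reach differences of more than 1 unit, so that they do not show that the vessels acted alike. For PTGS1 the changes were −1.01 ± 0.21 in the aorta and −0.58 ± 0.21 in the ductus, a difference of −0.43 (95% confidence interval −1.04 to 0.18), and MMP2 had −0.72 ± 0.15 in the aorta and −0.96 ± 0.15 in the ductus, a difference of 0.24 (95% confidence interval −0.19 to 0.67). ALDH1A1 changed by 1.29 ± 0.26 in the aorta and 1.03 ± 0.26 in the ductus, a difference of 0.27 (95% confidence interval −0.51 to 1.04), and the interval was narrowest for HACD1 and MMP2 among the 7 called genes. HACD1 had 0.90 ± 0.19 in the aorta and 0.81 ± 0.19 in the ductus, a difference of 0.0898 (95% confidence interval −0.47 to 0.65).

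**Figure D4:**
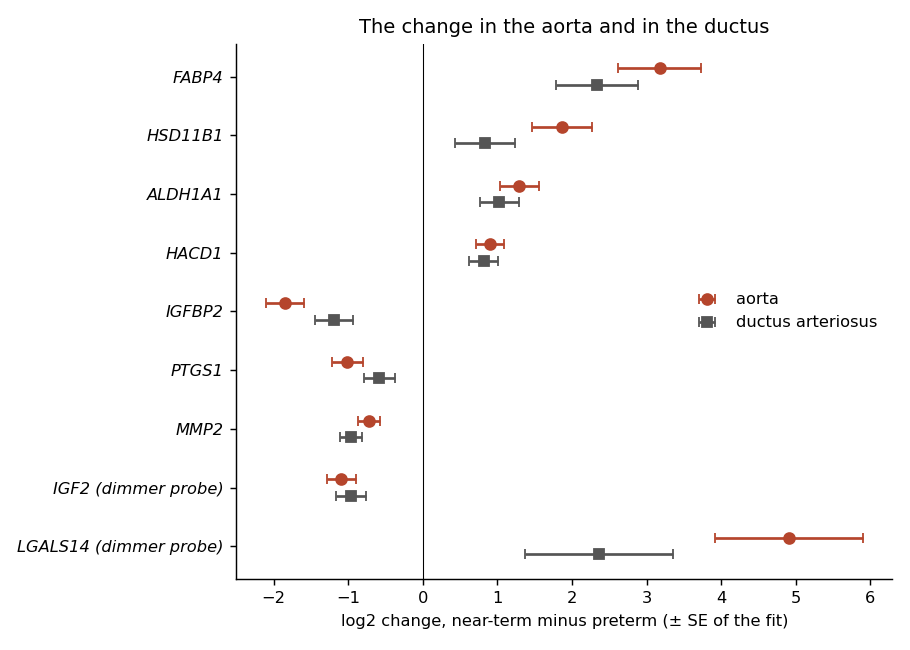
Log2 changes (near-term minus preterm, with bars of ± 1 SE of the fit) in the aorta (red circles) and the ductus arteriosus (grey squares) for the 7 called genes and the dimmer probes of IGF2 and LGALS14. All 9 changes have the same sign in both vessels, from 4.91 in the aorta and 2.36 in the ductus for LGALS14 to −1.85 and −1.19 for IGFBP2.

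Newborn aortas show where the levels stood after birth, as a description with no test. FABP4 averaged −3.96 ± 0.61 in preterm, −0.79 ± 1.62 in near-term and 1.46 ± 0.23 in newborn aortas (SD). IGFBP2 averaged 3.62 ± 0.31 in preterm, 1.78 ± 0.31 in near-term and 0.56 ± 0.42 in newborn aortas (SD). Both means continued in the direction of the fetal change. For FABP4, near-term array 4 read 1.63, above the newborn mean. PTGS1 averaged 2.51 ± 0.37 in preterm, 1.5 ± 0.14 in near-term and 1.48 ± 0.21 in newborn aortas (SD) and MMP2 0.22 ± 0.10 in preterm, −0.50 ± 0.12 in near-term and −0.59 ± 0.14 in newborn aortas (SD), so that the newborn levels of these genes lay within 1 SD of the near-term levels. HACD1 averaged 0.82 ± 0.19 in preterm, 1.72 ± 0.20 in near-term and 1.88 ± 0.27 in newborn aortas (SD) and ALDH1A1 −1.91 ± 0.29 in preterm, −0.62 ± 0.61 in near-term and −0.84 ± 0.26 in newborn aortas (SD), likewise within the spread of near term. HSD11B1 averaged −4.15 ± 0.61 in preterm, −2.29 ± 0.72 in near-term and −3.24 ± 0.30 in newborn aortas (SD), and its newborn mean lay between the fetal ones.

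**Figure D5:**
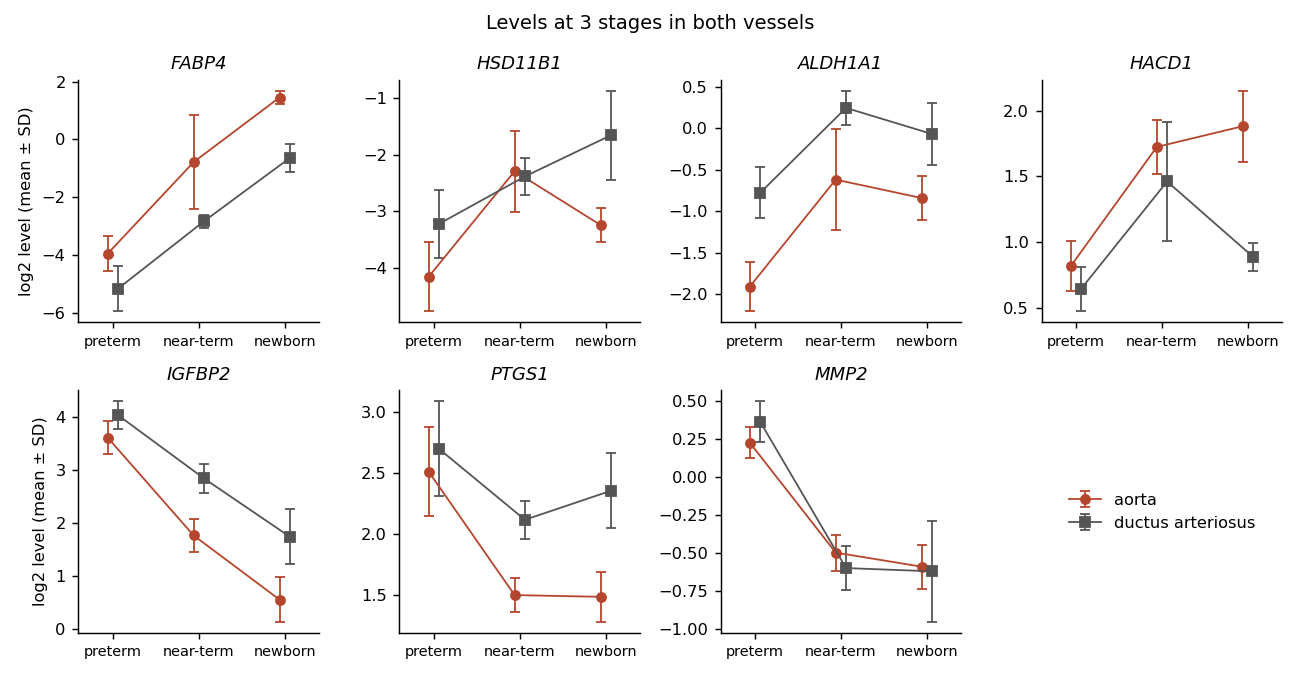
Mean log2 levels ± SD (n = 4 arrays each) of the 7 called genes at the preterm, near-term and newborn stages in the aorta (red circles) and the ductus arteriosus (grey squares), with lines joining the means of different animals. IGFBP2 is lower and FABP4 is higher at each later stage in both vessels, and the aortic level of HSD11B1 is highest near term at −2.29.

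The number of calls rested on few arrays. With 1 aorta array left out, 18 to 53 probes and 1 to 4 named genes were called. Without near-term arrays 1, 2, 3 and 4 in turn it was 30, 27, 27 and 53 probes, and without preterm arrays 1, 2, 3 and 4 in turn 18, 28, 30 and 37. A fit of the 8 aorta arrays alone called 12 probes, with IGFBP2 and ASPM as named genes, both lower near term. ASPM, a cell division gene outside the tested list, was not called in the main fit and was singled out after the results were seen. Median centring called 14 probes, with IGFBP2 and FABP4. Normexp background correction ended the calls of ALDH1A1, FABP4, HACD1, HSD11B1 and MMP2 and kept those of IGFBP2 and PTGS1.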

How the data were processed

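RNA of 24 sheep vessels, 4 animals in each of 6 groups of vessel and stage, was amplified from its poly(A) tail and labelled with Cy3 for 1-colour Agilent arrays, per the labels' protocols. The deposited intensity values are the processed signals of Agilent Feature Extraction 9.5.3.1, background-subtracted and detrended within each array, per the file headers. They were scaled here to each array's 75th percentile over non-control spots and put on the log2 scale, so that the deposited intensities are compared within each probe only. Spots marked as non-uniform or population outliers were left out, and spots of 1 probe were averaged. Probes that cleared the background on 4 or more arrays were tested with limma 3.58.1 (R 4.3.3) in 1 fit of 6 group means, two-sided, with Benjamini-Hochberg adjustment over all 14000 probes. The script was tested on simulated data.

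Symbols came from the arrays' own gene names, some updated by hand, and from 543 of 563 RefSeq accessions matched to the sheep assembly ARS-UI_Ramb_v3.0, and 13532 of 15008 probes stayed unnamed. A gene is represented by its brightest probe over the 24 arrays. Named genes were the called, non-overlapping ones (up to 15 in each direction), up to 4 members of each list by p, every called member and a panel of vascular and fetal genes. Exceptions, among them PPARG, UCP1 and DGAT1, are marked in the text. The members, 31 gene lists and 12 marker lists were chosen with earlier results of these data known. Summed marker levels are sums of linear scaled signals.

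Replicates of a group are separate animals. Whether a replicate number ties the aorta and ductus of the same animal together was not tested. The main fit did not pair samples by that number. No 2 of the 8 aorta arrays were identical (0 of 28 pairs). The number of arrays limits the precision: the median standard error of a change was 0.32. Alternatives covered background correction, scaling, filters, marked spots, blocks, array weights, the variance model and leaving out arrays.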

Additional observations from a re-analysis of the deposited data

Results flagged for a closer look

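In 9 of 126 gene and group pairs, 1 of the 4 arrays lay further from the rest than Dixon's 95% limit allows, where chance marks about 1 in 20 groups. The number given is the gap to the nearest array divided by the group's range. Near-term aorta 4 was the highest of its group for 4 genes. These were FABP4 (ratio 0.871, at 1.63 with the nearest array at −1.31), PPARG (ratio 0.952, at 1.88 against −1.40), DGAT1, an enzyme of triglyceride synthesis (ratio 0.946, at 1.09 against −0.87), and HYAL2 (ratio 0.931, at 0.0895 against −0.36). The first 3 are fat cell markers, whose summed level was 19.9 on that array. DGAT1, like PPARG, was singled out after its values were seen.

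Near-term aorta 2 was the highest for PTX3 (ratio 0.864, at −1.19 against −1.82). Preterm aorta 1, which had a spike-in limit of 0.884, was the lowest of its group for 4 genes. These were EDNRB (ratio 0.847, at −7.21 against −4.63), NR3C1 (ratio 0.955, at −7.65 against −5.91), HSP90AA1 (ratio 0.88, at 2.23 against 2.66) and ANGPT1 (ratio 0.946, at −4.65 against −3.73). NR3C1 was not well above background on any preterm array.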

How the results depend on the processing

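The 69 called probes and 7 called genes became 1249 and 78 with array weights, 117 and 13 with probes well above background on all 24 arrays, 106 and 11 with a trended, robust variance, and 104 and 12 with the spike-in limit as a block. They became 14 and 2 under median centring, 12 and 2 with the 8 aorta arrays alone, 2 and 0 over arrays with a spike-in limit above 1.5, and 287 and 18 over those under it. That last setting leaves 1 aorta per stage, assumed to vary like the other groups, and called 223 probes higher and 64 lower. Normexp background correction called 54 probes, 22 higher and 32 lower, and 3 genes. With 1 array left out the counts were 18 to 53 probes and 1 to 4 genes. The difference between the vessels had 0 calls with 1 array left out, 1 above the spike-in limit of 1.5 and 13 under it. Between near-term and preterm aortas, same-numbered arrays had correlations of deviations of 0.601, 0.281, 0.44 and 0.024, with a median of 0.36. Arrays of other numbers had −0.661 to 0.471, with a median of −0.161. Near-term array 3 correlated best with preterm array 2, at 0.471. The replicate number was also the row on the slide. These arrays hold different animals, so that the values cannot show whether a number ties the aorta and ductus of 1 animal together. A replicate block called 67 probes and 5 genes, without HACD1 (adjusted p = 0.0614) and HSD11B1 (adjusted p = 0.0513). Of 1461 recomputed gene values 1331 kept direction and call, 70 lost and 42 gained the call, and 18 changed sign, all in uncalled genes. AGTR1 became 0.23 with array weights and 0.11 above the spike-in limit of 1.5, and −0.22 to 0.14 with 1 array left out. COL1A1 became 0.26 with normexp. COL3A1 became 0.31 under the limit and −0.41 to 0.037 with 1 array left out. EDN1 became −0.046 under median centring, −0.13 under quantile normalisation and −0.80 under the limit, and −0.12 to 0.44 with 1 array left out. ESR1 became −0.24 and HSP90AA1 0.31 under the limit. Under quantile normalisation PTGS2 became −0.096 and NR3C1 −0.19, where NR3C1 was not well above background on any preterm array, so that neither its change nor its sign can be read, and IGF1 −0.065 to 0.78 with 1 array left out. The cause of these shifts was not tested.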
